A study of Mus musculus with 12 samples.

Results

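The transcripts described here are the 200 transcript clusters whose expression differed most from mouse to mouse within the inbred MSN strain. They were the 200 with the highest standard deviation (SD) of log2(intensity + 16) over the 6 MSN hippocampi, taken from 18559 clusters that the array annotation pairs with a single gene and whose mean log2 value in MSN mice was 7 or more. The whole table held 35556 clusters. The 200 clusters, 1.08% of those ranked, stood for 191 of 16969 genes. No difference between strains entered the choice.

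Hippocampal RNA of 6 MSN mice and 6 ICR mice was hybridized to 12 Affymetrix Mouse Gene 1.0 ST arrays, 1 mouse to each array. MSN (Madison) is an inbred line, highly but not completely so by the study's account, that was bred from the outbred hsd:ICR stock through ancestors selected for wheel running and has a manic phenotype. Mice of both strains were untreated adult males of similar age, killed under isoflurane the day after their locomotor activity had been recorded, and the hippocampi were macrodissected and frozen. The MSN mice are called mouse 1 to mouse 6 below, after the replicate numbers of their arrays, and that number says nothing about an order.

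Mice of an inbred line share most of their alleles. Neurons switch on immediate early genes within minutes of firing, and the products of these genes are transcription factors and synaptic proteins. The choroid plexus, the epithelium that secretes cerebrospinal fluid, lies in the ventricle against the hippocampus and can come away with it, and its genes are nearly silent in neurons. In whole tissue, fewer cells of a type and less RNA in each cell cannot be told apart.

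The 6 MSN arrays were alike in general. Their median intensities were 270 to 293, and each correlated with the others of the strain at a mean r of 0.995 to 0.996 on the log2 scale. Array 5 had the lowest median, the largest share of clusters below an intensity of 16 (2.33%, against 1.79% to 2.05% on the others) and the widest deviations from the strain mean, with an SD of 0.118 over all ranked clusters against 0.0770 to 0.0977. Several of the sets and lists in which mouse 5 was often the extreme animal are therefore also given without it.

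Spread within the strain was small for most genes. The median SD of the 18559 clusters was 0.0807 on the log2 scale, with a 90th percentile of 0.145. Among the 200 members the SD ran from 0.257 to 1.30 with a median of 0.321. The highest value of a member was a median of 1.85 times its lowest, and that of a ranked cluster 1.16 times, both with 16 added to the intensities. An SD from 6 mice is imprecise: the 95% chi-square interval reached from 0.624 to 2.45 times the value. The last clusters inside the list were Tpbg at 0.258, Dnajb1 at 0.257 and Fam20b at 0.257, and the first ones outside were Olfr1507 at 0.257, 1700048O20Rik at 0.257 and Cfap65 at 0.256. The border therefore divided clusters of nearly equal spread.

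Weakly expressed clusters varied more. The median SD was 0.104 for clusters with a mean log2 of 7 to 8 and 0.0530 for those of 11 or more. Members came from every level, from 50 of 4781 clusters in the lowest of these classes to 9 of 2145 in the highest.

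**Figure D1:**
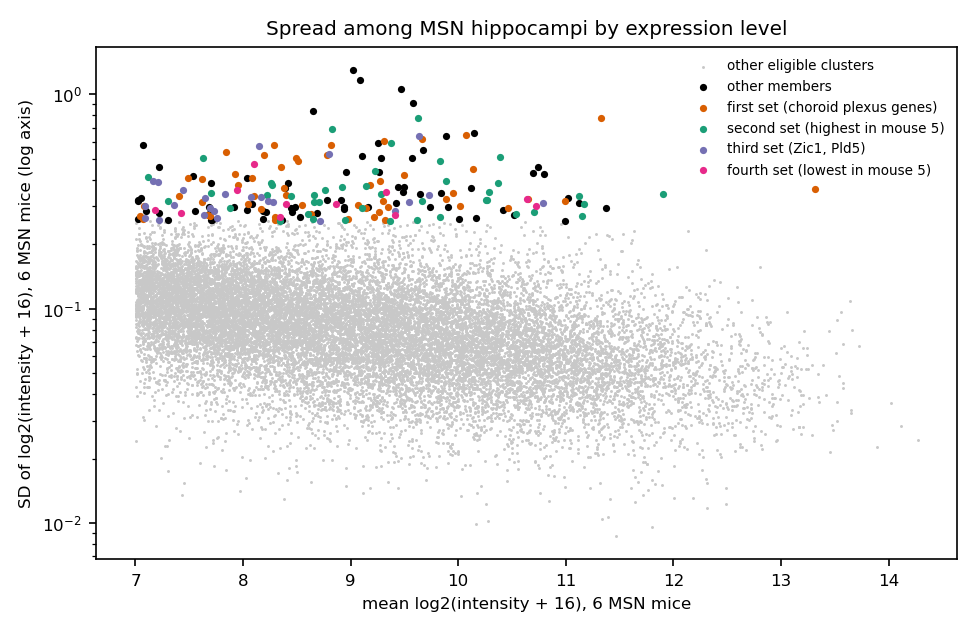
Each point is a transcript cluster, with the mean of log2(intensity + 16) over the 6 MSN mice on the horizontal axis and its SD over these mice on a logarithmic vertical axis. Gray points are ranked clusters outside the list; the 200 members lie above 0.257, and colors mark the 4 largest sets that varied together.

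The extremes were shared out unevenly among the mice. Mouse 4 had the highest value in 67 of the 200 members, and mouse 5 in 52. Mouse 3 had the lowest value in 70. Over all ranked clusters, mouse 4 was highest in 11.3%, mouse 5 in 17.9%, and mouse 3 was lowest in 11.2%. Mouse 5 was also the animal farthest from the mean in 71 members, and in 27.7% of all ranked clusters.

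Members varied together in a few patterns. Of 19900 pairs of members, 1286 (6.46%) had a Pearson r of 0.9 or more over the 6 MSN mice, against 1.27% of the pairs of all ranked clusters. A high r arises readily among 6 points, so these shares are descriptive. In the 6 ICR mice, which took no part in the choice, 6.53% of the member pairs and 1.004% of all pairs reached 0.9. Average-linkage clustering on 1 - r, divided at 0.3, placed the members in 30 sets. Sets of 8 or more clusters were 4 in number and held 130 of the 200. They are described in order of size.

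**Figure D2:**
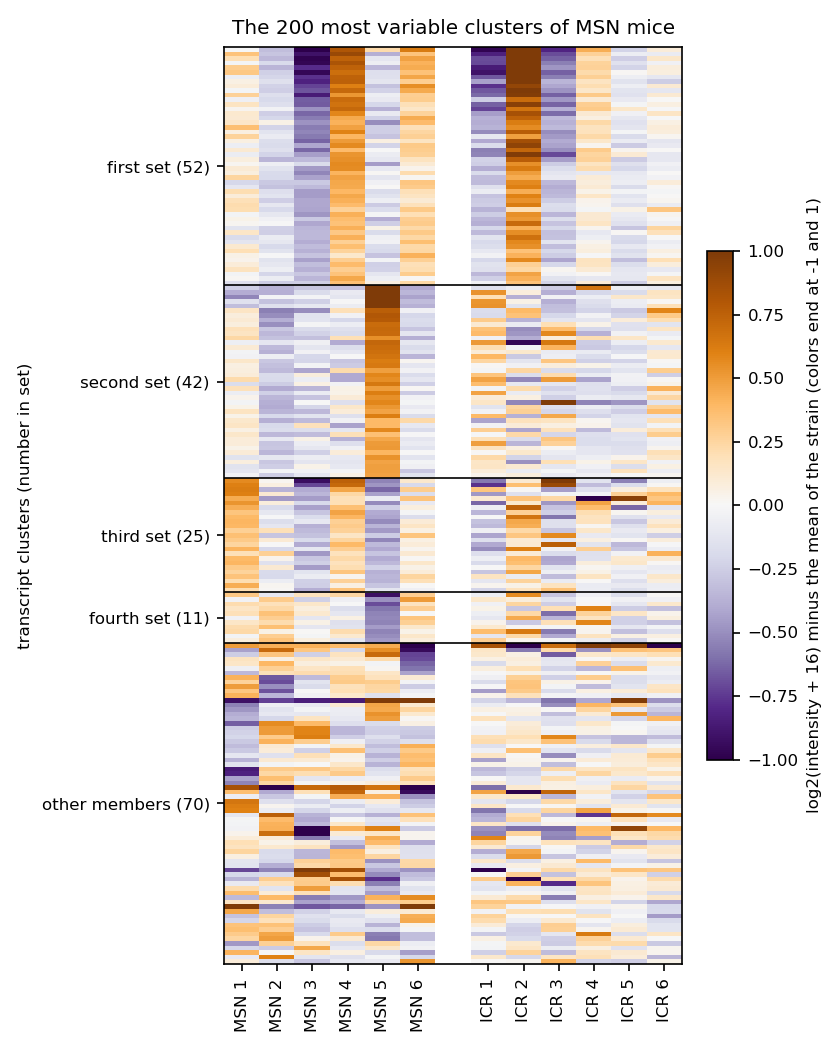
Rows are the 200 members, ordered by set; columns are the 6 MSN mice and, right of the gap, the 6 ICR mice. Color gives log2(intensity + 16) minus the mean of the strain, purple for lower and orange for higher: the 52 rows of the first set are mostly highest in MSN mouse 4 and lowest in MSN mouse 3, and the 42 rows of the second set are all highest in MSN mouse 5.

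The first set, of 52 clusters and 50 genes, held the genes of the choroid plexus. Its clusters were highest in mouse 4 (49 of 52) and lowest in mouse 3 (47 of 52). Relative to the strain mean, the mean log2 difference of the set was 0.50 in mouse 4 and 0.27 in mouse 6, and -0.52 in mouse 3. The median r between its clusters was 0.91 in MSN mice. In ICR mice the same clusters again varied together, with a median r of 0.93, and ICR mouse 2 stood out as the high one, at a mean log2 difference of 0.71.

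Channels and transporters of the epithelium led this set. Kcnj13, an inwardly rectifying potassium channel, had intensities from 997 in mouse 3 through a median of 2754 to 4476 in mouse 4. Folr1, the folate receptor that carries folate into cerebrospinal fluid, went from 308.5 in mouse 3 to 1103 in mouse 4, with a median of 600.3. For Slc4a5, a sodium bicarbonate cotransporter, the lowest value was 209 in mouse 3, the median 315 and the highest 575 in mouse 4. The same pair of mice marked the limits in all 3 genes.

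Secreted and regulatory genes of the plexus had the same lowest and highest mouse, with some changes of order between them. Ttr, the thyroid hormone carrier that is its most abundant product, ranged from 6563 in mouse 3 to 13193 in mouse 4 around a median of 10567. Sostdc1, a secreted antagonist of BMP and Wnt signals, had 558 in mouse 3, a median of 1101 and 1976 in mouse 4. Otx2, the homeobox factor that maintains the plexus, had 166 in mouse 3, a median of 299.5 and 508 in mouse 4. Clic6, an intracellular chloride channel protein, and Cldn2, the claudin of leaky epithelia, spanned 216 to 709 and 119 to 369.6. Lbp, a binding protein for bacterial lipopolysaccharide, spanned 395 to 1346, and Kl, the hormone-like protein klotho, 698 to 1776.

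Over the list of 22 choroid plexus markers, 20 were among the ranked genes and 17 of these were members. Members made up 1.13% of all ranked genes. The median SD of the 20 was 0.453 in MSN mice and 0.546 in ICR mice, and that of all 16969 genes was 0.0819 in MSN mice. Mouse 4 had the highest value in 18 of the 20 and mouse 3 the lowest in 18 of the 20. The exceptions among the ranked markers that were not members were Cab39l at an SD of 0.240, Aqp1 at 0.215 and Slco1a5 at 0.0692. Among the 17 members the median r was 0.94 in MSN and 0.97 in ICR mice. Without mouse 5 the list had 18 members. Every mouse had these markers, with lowest values of 6563 for Ttr and 698 for Kl. Whether the amount of plexus dissected with each hippocampus had a part in these differences was not tested.

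The set also held genes that are expressed in the plexus and elsewhere. Htr2c, the serotonin 2C receptor, went from 734 in mouse 3 to 1382 in mouse 4. Igf2, a growth factor of the meninges and plexus, had 1681 in mouse 3 and 2791 in mouse 4, and Igfbp2, which binds it, 485 and 843 in the same mice. Mir204, a microRNA gene inside an intron of Trpm3, was highest in mouse 4 at 822 and lowest in mouse 5 at 481, around a median of 635, while Trpm3, a cation channel of the plexus, went from 1050.4 in mouse 3 to 1780.3 in mouse 4. The array reads the precursor and cannot tell its mature products apart. They are shown because this is the only microRNA gene of the set, and capitals mark the seed, bases 2 to 8. RefSeq (GRCm38.p6) places them at chr19:22750610-22750631 and chr19:22750649-22750669 on the plus strand.
mmu-miR-204-5p: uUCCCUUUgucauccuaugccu
mmu-miR-204-3p: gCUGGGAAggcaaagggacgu

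Genes of motile cilia went partly with the plexus genes. A list of 30 such genes, drawn up after these values had been seen, had 29 ranked genes and 10 members. Cfap126, of the ciliary axoneme, was lowest in mouse 5 at 110.4 and highest in mouse 4 at 224. Drc7, of the dynein regulatory complex, went from 168 in mouse 3 to 356 in mouse 4, and mouse 6 was close behind at 353. Spef2, needed for sperm tails and cilia, had 6 member clusters, of which 3 fell into the first set and 3 into the third. The mean over the 10 cilia members followed that over the 17 plexus members with an r of 0.89 across the 6 MSN mice and 0.99 across the 6 ICR mice. Mouse 5 was the lowest in 15 of the 29, and the list's median SD was 0.176 with it and 0.169 without it. The list of 13 ranked ependymal markers gave 2 members, Cfap126 and Calml4, of which Calml4 is also on the plexus list.

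The second set, of 42 clusters and 41 genes, was highest in mouse 5 in every cluster. Its mean log2 difference was 0.65 in mouse 5 and between -0.28 and 0.01 in the others. Mouse 2 had the lowest value in 23 of the 42. The median r was 0.86 in MSN mice and 0.20 in ICR mice. With mouse 5 left out, the median SD of the set was 0.166 in place of 0.337, and 28 of the 42 still lay above the 90th percentile of the ranked clusters, which was then 0.136.

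Immediate early transcription factors had their peak in this mouse. Egr2, a zinc finger factor, measured 1167 in mouse 5 and 329.9 to 409.96 in the other 5 mice. Npas4, a neuron-specific factor that answers calcium entry, measured 1439 in mouse 5 and 443 to 633 in the others. Fos, a subunit of AP-1, measured 381 in mouse 5 and 137 to 172 in the others. In none of the 3 genes did another mouse overlap with mouse 5. Fosb had 679 against a next highest value of 408, Egr1 3463 against 2311, and the nuclear receptor Nr4a1 1867 against 1255.

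Effector genes of the same response showed the same mouse. Arc, which acts at the synapse in the removal of AMPA receptors, had 2695 in mouse 5 and a median of 1163. Homer1, a scaffold of glutamate receptors, had 3225 and a median of 2147. Ptgs2, the inducible cyclooxygenase, had 1516 and a median of 899.9, with its lowest value, 654, in mouse 2. Inhba, a subunit of activin, and Nptx2, a secreted pentraxin that gathers AMPA receptors, reached 1029 and 953 in mouse 5 around medians of 549 and 579. Dusp1, a phosphatase of MAP kinases and also a target of glucocorticoids, reached 1965 around a median of 1194.

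The list of immediate early genes had 33 ranked genes of 34, and 12 were members. Mouse 5 was highest in 32 of the 33, and the exception was Nr4a2, highest in mouse 3 at 3352 with 3186 in mouse 5. The median log2 difference of the 33 genes was 0.44 in mouse 5 and -0.14 to -0.03 in the others. The list's median SD was 0.236, and 0.115 without mouse 5, against 0.0819 and 0.0743 over all genes. Without mouse 5 the list had 0 members. When the arrays were scaled to a common median it had 17. The members' median r was 0.94 in MSN mice and 0.40 in ICR mice, and the median SD of the list in ICR mice was 0.139. Jun and Per1, on the same list, had SDs of 0.0593 and 0.0634 and spanned 1491 to 1670 and 1067 to 1186.

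Promoters of the immediate early members were searched for the cyclic AMP response element, because CREB, a factor that neuronal activity switches on, binds it. Of the 191 member genes, 154 had a promoter in the RefSeq table (GRCm38.p6), which holds 250 bases before to 50 after each start. The core TGACG, read on both strands, was found in promoters of 8 of the 9 immediate early members in the table, and in 71.4% of their 14 promoters. It occurred in 20.8% of all 32851 promoters, in 26.9% of the 16687 promoters of ranked genes, and in 20.2% of the 198 promoters of member genes. The 3 heat shock members described below, also of the second set, all held it, in 75% of their 4 promoters. Another motif searched, the CArG box, was found for Egr2 alone among the 9, in 28.6% of the 14 promoters, against 1.39% of those of ranked genes. The full element TGACGTCA, which contains the core on each strand, was found for Dusp1 alone among these 9, in 1 of the 14 promoters, against 1.79% of all promoters and 2.59% of those of ranked genes. Stretches of 250 bases before the start are shown for 3 of the genes, with each core in capitals.
Fos promoter, chr12:85473640-85473889, plus strand: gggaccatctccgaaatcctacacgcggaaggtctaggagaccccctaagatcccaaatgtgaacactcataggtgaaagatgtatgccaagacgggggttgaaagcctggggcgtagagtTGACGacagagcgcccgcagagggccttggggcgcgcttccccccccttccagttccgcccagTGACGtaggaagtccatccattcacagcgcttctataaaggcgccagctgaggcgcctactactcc
Npas4 promoter, chr19:4989972-4990221, minus strand: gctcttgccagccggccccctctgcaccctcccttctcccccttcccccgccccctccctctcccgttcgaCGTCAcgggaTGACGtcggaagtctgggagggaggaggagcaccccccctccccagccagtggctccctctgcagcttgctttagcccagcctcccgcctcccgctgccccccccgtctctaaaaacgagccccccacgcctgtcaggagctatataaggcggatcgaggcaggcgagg
Nr4a1 promoter, chr15:101266596-101266845, plus strand: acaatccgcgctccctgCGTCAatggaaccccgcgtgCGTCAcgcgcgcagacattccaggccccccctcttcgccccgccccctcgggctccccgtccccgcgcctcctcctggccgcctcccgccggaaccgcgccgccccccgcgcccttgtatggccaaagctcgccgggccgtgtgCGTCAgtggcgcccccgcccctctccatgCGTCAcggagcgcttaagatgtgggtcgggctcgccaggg
The cores of Fos began 129 and 66 bases before the start, and those of Npas4 179 and 169 bases before it, on opposite strands. Nr4a1 had 4. A match of these letters is a description of the sequence.

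Chaperones of the endoplasmic reticulum lay in the second set as well. These proteins fold secreted and membrane proteins and are raised together by the unfolded protein response. Sdf2l1, a partner of the chaperone Hspa5, went from 604 in mouse 2 through a median of 929 to 1527 in mouse 5. Hspa5 itself, also known as BiP, had 2859.9 in mouse 3, 3023 in mouse 2 and 5373 in mouse 5. Creld2 went from 599.7 in mouse 2 to 1146 in mouse 5, and Pdia6, a disulfide isomerase, from 945 to 1767 in the same mice. Pdia4 and Manf, a secreted factor that stays in the reticulum until it is stressed, were lowest in mouse 2 and highest in mouse 5, at 1298 and 2115 and at 699 and 1187. A further ranked cluster of Pdia4 did not follow the member cluster (SD 0.160, r = -0.14).

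A list of 24 such genes, chosen after these values were seen, had 6 members, all named above. Mouse 5 was highest in 16 and mouse 2 lowest in 15 of the 24. The order of the other mice differed from that of the immediate early genes: for the 6 members, the mean log2 differences were 0.51 in mouse 5, 0.15 in mouse 4 and 0.09 in mouse 1, and -0.33 in mouse 3 and -0.39 in mouse 2. For the 12 immediate early members they were 0.82 in mouse 5 and -0.28 to -0.07 in the others. Without mouse 5 the list had 3 members, and its median SD was 0.116 in place of 0.166. The 6 members varied together in ICR mice too, with a median r of 0.94 against 0.98 in MSN mice. Across mice, the means of the 2 groups of members had an r of 0.80 in MSN and 0.40 in ICR.

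The endoplasmic reticulum stress element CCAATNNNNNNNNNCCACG, the binding site of ATF6 with NF-Y, was searched on both strands of the same promoters. It was found for 3 of the 5 chaperone members in the table and in 0.119% of the 32851 promoters of the table and 0.114% of those of ranked genes. Counted by gene, 37 of the 27025 genes in the table held it. The 3 are shown with the element in capitals, in Creld2 on the opposite strand.
Hspa5 promoter, chr2:34771840-34772089, plus strand: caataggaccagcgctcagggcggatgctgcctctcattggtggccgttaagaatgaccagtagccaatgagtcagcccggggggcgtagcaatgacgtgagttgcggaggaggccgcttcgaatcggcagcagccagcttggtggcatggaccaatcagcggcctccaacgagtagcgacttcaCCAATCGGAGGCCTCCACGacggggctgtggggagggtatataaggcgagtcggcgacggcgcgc
Creld2 promoter, chr15:88819396-88819645, plus strand: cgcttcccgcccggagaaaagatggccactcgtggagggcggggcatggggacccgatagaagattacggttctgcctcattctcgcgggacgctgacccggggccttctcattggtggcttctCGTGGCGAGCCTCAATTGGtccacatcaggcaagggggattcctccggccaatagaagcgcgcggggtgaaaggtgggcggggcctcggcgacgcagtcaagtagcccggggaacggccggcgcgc
Pdia6 promoter, chr12:17266339-17266588, plus strand: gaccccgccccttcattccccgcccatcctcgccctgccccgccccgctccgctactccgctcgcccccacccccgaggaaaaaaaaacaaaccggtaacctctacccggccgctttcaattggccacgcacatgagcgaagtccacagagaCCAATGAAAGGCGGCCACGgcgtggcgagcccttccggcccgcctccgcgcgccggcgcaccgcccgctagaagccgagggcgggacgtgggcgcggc
The element began 65 bases before the start in Hspa5, 126 in Creld2 and 98 in Pdia6.

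A list of heat shock proteins, which holds chaperones of the cytosol and mitochondria and also Hspa5, had 17 ranked genes. Mouse 5 was highest in 14 of them, and 3 were members: Hspa5, Hspb1 and Dnajb1. The list's median SD was 0.173, and 0.114 without mouse 5. Hspb1, a small heat shock protein, was measured by 2 member clusters that followed each other with an r of 0.996 in MSN mice, at 249.6 in mouse 2 and 476 in mouse 5 in one and 299.9 and 545 in the other. Dnajb1, a cochaperone of Hsp70, had 908 in mouse 5 and 539.6 to 669 in the rest, and its SD was 0.257 with mouse 5 and 0.114 without it.

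Of the second set, 24 clusters belonged neither to the immediate early nor to the endoplasmic reticulum list, those of Hspb1 and Dnajb1 among them. Several of these genes mark particular neurons or regions. Lamp5, of upper cortical layers and a class of interneurons, had 2146 in mouse 5 around a median of 1180.4. Cckbr, the cholecystokinin B receptor, had 914 and a median of 518, and Vip, the peptide of an interneuron class, 592 and a median of 378. Vip was the only member among 20 ranked interneuron markers, whose median SD was 0.101. Mouse 5 was highest in 9 of these 20 and lowest in 4, with a median log2 difference of 0.03. Without mouse 5 the SD of Lamp5 was 0.188 in place of 0.384, that of Cckbr 0.142 in place of 0.375, and that of Vip 0.207 in place of 0.341. Myl4, Sema3a, Rgs4, Kcnf1 and Ccn2, the last a marker of deep cortical layers and the subplate, also peaked there. Kcnf1 was near level in the other 5 mice, at 350.1 to 368, and had 568 in mouse 5. Of 24 ranked markers of cortex and subiculum, 11 were highest in mouse 5 and 2 were members, with a median SD of 0.117, and 0.0913 without mouse 5. In ICR mice the 24 clusters had a median r of 0.24 and their mean ran against that of the plexus members (r = -0.90, and -0.13 in MSN mice). The part of cortical tissue in these values was not tested.

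Nt5dc3, a gene of the 5' nucleotidase family, headed the set by SD, and its values were of another kind. Mouse 5 had 2347 and the other mice 583 to 656. Its SD without mouse 5 was 0.0656, below the median of all ranked clusters. The 6 ICR mice had 2004 to 3812, so the value of mouse 5 lay inside their range and those of the other 5 MSN mice below it.

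**Figure D3:**
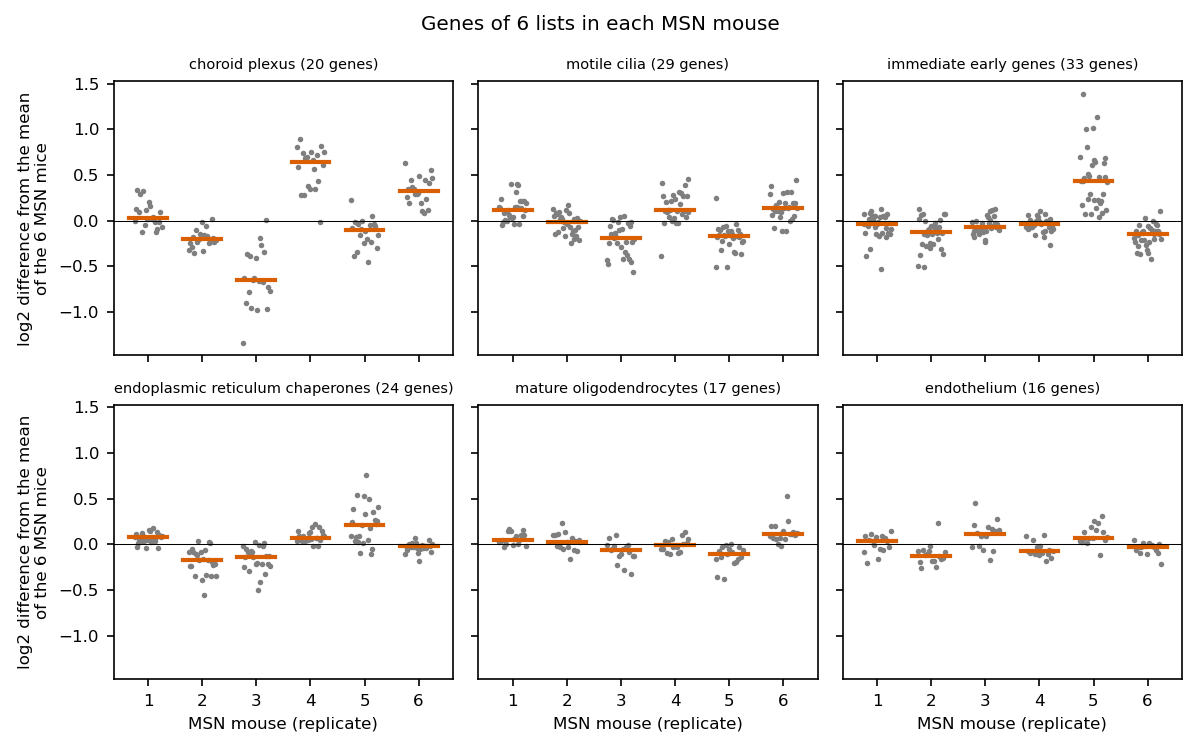
Each panel shows the ranked genes of a list as points, the 6 MSN mice on the horizontal axis and the log2 difference of a gene from its mean over these mice on the vertical axis; orange bars are medians. The plexus list has its median at 0.64 in mouse 4 and -0.65 in mouse 3, the immediate early list at 0.44 in mouse 5, and the oligodendrocyte and endothelial lists between -0.12 and 0.11 in each mouse.

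The third set, of 25 clusters and 23 genes, was high in mice 1 and 4 and low in mice 3 and 5. The mean log2 differences were 0.39 and 0.30 in mice 1 and 4, and -0.33 and -0.37 in mice 3 and 5. The median r was 0.85 in MSN and 0.28 in ICR mice. The median SD was 0.314, and 0.289 without mouse 5. Transcription factors of the midline and forebrain development stood in it. Zic1 had 402 in mouse 3, a median of 819 and 1321 in mouse 4, and its relatives Zic2 and Zic5 had the same extremes, at 1329 and 2294 and at 306 and 519. Eomes, of neuronal progenitors and Cajal-Retzius cells, went from 140 in mouse 3 to 247 in mouse 1. It was the only member among 12 ranked genes of adult neurogenesis, whose median log2 differences lay between -0.01 and 0.03 in every mouse. No list of Cajal-Retzius markers was drawn up. Ebf3, also of Cajal-Retzius cells, went from 203.1 in mouse 5 to 349 in mouse 1. Reln, another gene of these cells that stands on the interneuron list, went the other way. It was not a member (SD 0.124) and was highest in mouse 5 at 1486, against 1188 to 1298 in the others.

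Genes with strong expression outside the hippocampus were among the members of this set. Prkcd, a protein kinase C of thalamic neurons, had 629.7 in mouse 5, a median of 798 and 1159 in mouse 4. Pld5 had 157 in mouse 3 and 448 in mouse 4, and Slitrk6, a synaptic adhesion protein, 106 in mouse 5 and 236 in mouse 1. Slc10a4, a vesicular protein of cholinergic neurons, had 199 in mouse 5 and 364 in mouse 4. Of the 24 ranked markers of thalamus and habenula, 2 were members, Prkcd and Zic1, and 11 of the 24 were highest in mouse 5, where Prkcd was lowest. In ICR mouse 3 Zic1 reached 2365, where the other ICR mice had 679 to 1105. The set held 3 clusters of Spef2 and the cilia genes Stoml3, Meig1 and Dnah3 as well.

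The fourth set, of 11 clusters and 10 genes, was lowest in mouse 5 in each cluster, with a mean log2 difference of -0.57 there. The other 5 mice lay between -0.01 and 0.23. Tbc1d5, a regulator of retromer, had 129 in mouse 5 and 239 to 326 in the others. Itga8, an integrin of the extracellular matrix, had 465 and then 654 to 817, and Naa20, of an N-terminal acetyltransferase, 1050.3 and then 1408 to 1929. A second member cluster of Naa20 had 1147 in mouse 5 and followed the first with an r of 0.999. For Tbc1d5 a second ranked cluster, not a member, had an SD of 0.0318 against 0.474, with an r of 0.62. The median SD of the set was 0.308, and 0.168 without mouse 5.

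The set held 3 microRNA genes, and none of the mature forms shown here shared a seed. Mir491 had 381 in mouse 5 and 625 to 730.2 in the others. Mir137, a microRNA of neuronal maturation, had 217 in mouse 5 and 297 to 414 in the others. Mir690 had 219.8 in mouse 5 and 286 to 395 in the others. Among 181 ranked microRNA genes 6 were members (3.31%, against 1.13% of all ranked genes). Mouse 5 was lowest in 89 of the 181, and in 28.5% of all ranked clusters. Olfactory receptor genes, which brain tissue expresses weakly, were lowest in mouse 5 in 140 of 329. The median SD of the microRNA family was 0.138. The array measures precursors or their host transcripts. The mature forms of the 3 are printed as in RefSeq (GRCm38.p6), with seeds in capitals, from chr4:88122057-88122078 and chr4:88122091-88122112 on the plus strand, chr3:118433865-118433887 and chr3:118433901-118433923 on the plus strand, and chr16:28599940-28599961 on the minus strand.
mmu-miR-491-5p: aGUGGGGAacccuuccaugagg
mmu-miR-491-3p: cUUAUGCAagauucccuucuac
mmu-miR-137-5p: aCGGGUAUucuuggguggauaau
mmu-miR-137-3p: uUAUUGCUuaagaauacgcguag
mmu-miR-690: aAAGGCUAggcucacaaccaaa
The remaining microRNA members were Mir186 and Mir669b, which lay in smaller sets.

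Several of the clusters with the highest SD had mice at 2 distinct levels. A gap of at least 0.5 on the log2 scale that was at least 2 times as wide as the range on either side of it was found in 31 ranked clusters, and 26 of them were members. In 18 of the 26 a single mouse stood apart, in 7 a pair, and in 1 there were 3 mice on each side. Snord53, a small nucleolar RNA, measured 259.5, 296, 274 and 269.8 in mice 1 to 4, and 1711 and 1562 in mice 5 and 6. Zfp605, a zinc finger protein, measured 162 in mouse 2 and 191 in mouse 6, and 846 to 954 in the other 4. Baiap2l1, an adaptor of actin and membranes, measured 142 in mouse 6 and 904 to 985 in the rest. No value lay between the levels in these 3 clusters.

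Both levels of some genes were also seen in the outbred stock. ICR mice had 1559.8 for Snord53 in mouse 5 and 236 to 309.6 in the others, and for Baiap2l1 189 and 92.1 in mice 2 and 6 and 942 to 1699.6 in the others. Kcnj16, a potassium channel subunit, had 953 and 708 in MSN mice 3 and 4 and 229 to 289 in the other 4, and in ICR mice 259.9 in mouse 1 and 547 to 714 in the others. For 1810037I17Rik and Glo1 the ICR mice lay in a single narrow range. 1810037I17Rik measured 1896 and 1529 in mice 1 and 6 and 466 to 533 in the other 4, and 457 to 635 in ICR mice. Glo1, the glyoxalase that clears methylglyoxal and has been studied in mouse anxiety, measured 2339.7 and 2485 in mice 2 and 3 and 1287 to 1389 in the other 4, and 1159 to 1336 in ICR mice.

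Different probes of a gene did not always show the same levels. The second member cluster of Glo1 gave 2497 and 2663 in mice 2 and 3 and 1379 to 1501 in the others, with an r of 0.999 to the first. For Baiap2l1, 2 further ranked clusters had SDs of 0.0244 and 0.0286, and neither followed the member cluster (r = -0.07 and -0.46). Further ranked clusters of the same gene existed for 16 of the member genes. Taken by gene, the r to a member cluster had a median of 0.75, and 5 genes reached 0.9. The further clusters of Tbc1d5, Cdh24 and Pdia4 had SDs of 0.0318, 0.0706 and 0.160, with an r of 0.62, 0.52 and -0.14. Ciart, a repressor in the circadian clock, had 2 members at an r of 0.95.

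Some members had neighbors on the chromosome that varied with them. Of those named here, Ccl28 alone was among the 26 with distinct levels. Alad, an enzyme of heme synthesis, had 927 in mouse 1, 1498 in mouse 5 and 1917 to 2117 in the others. Hdhd3, which lies within 500 kb of it on chromosome 4 and was a member too, had 329.6 in mouse 1, 546 in mouse 5 and 689.8 to 743 in the others. The pair had an r of 0.99 in MSN and 0.78 in ICR mice. Tmem267 and the chemokine gene Ccl28 on chromosome 13 were both highest in mouse 1, at 1428 and 295, with an r of 0.91 in MSN and 0.64 in ICR mice. Cd59a, which shields cells from complement, and its copy Cd59b on chromosome 2 had an r of 0.99 and 0.83. Among 2415 pairs of a member and a ranked neighbor within 500 kb, 44 (1.82%) had an r of 0.9 or more. Pairs in which both clusters were members, such as Alad with Hdhd3 and Tmem267 with Ccl28, were counted from each side, which raises this share. Over all pairs of ranked clusters, each counted once, the share was 1.27%.

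**Figure D4:**
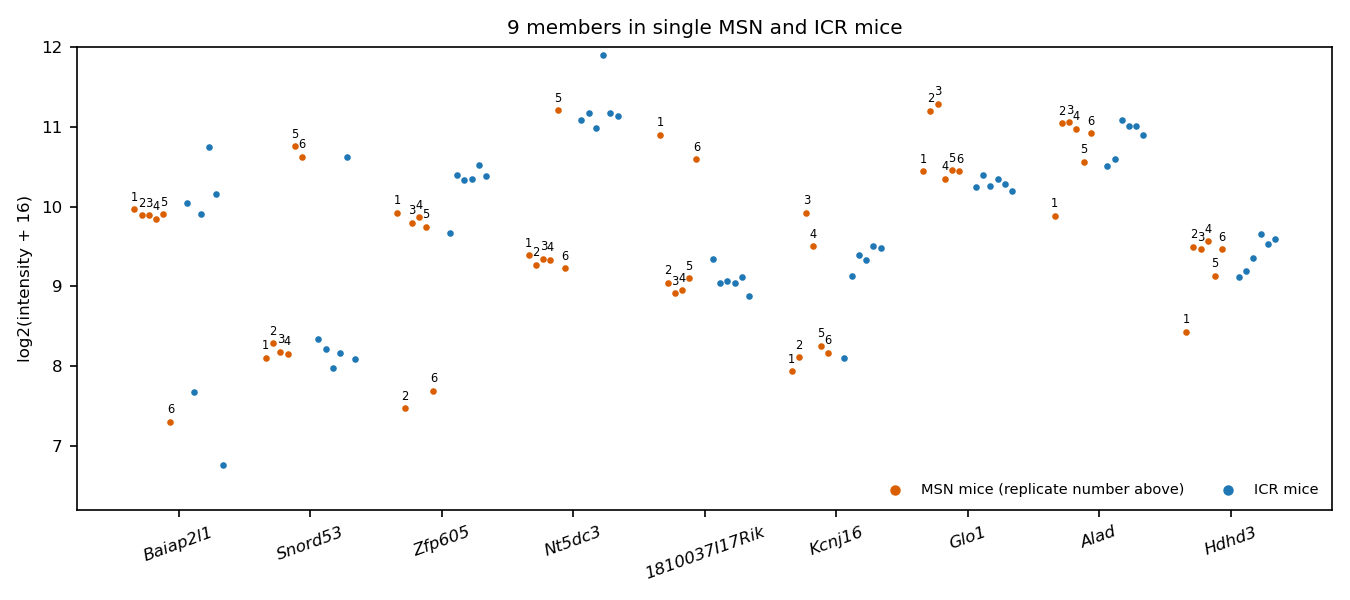
Points are single mice, with log2(intensity + 16) on the vertical axis; for each of 9 members the 6 MSN mice (orange, replicate numbers above) stand left of the 6 ICR mice (blue). In Snord53 and Zfp605 a pair of MSN mice is set apart from the other 4, in Baiap2l1 and Nt5dc3 a single mouse, and in Alad and Hdhd3, which were not among the 26 with distinct levels, mouse 1 is lowest with mouse 5 next.

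The same clusters tended to vary in the outbred ICR mice. The members' SD in ICR mice had a median of 0.268, where the median of all ranked clusters was 0.0795. It lay above that median in 195 of the 200 members, and 70 of the 200 (35%) were also among the 200 highest in ICR mice. Of the first set, 33 of 52 clusters were. Of the second set, 9 of 42 were, of the third 9 of 25 and of the fourth 3 of 11. The ICR value was the smaller in 135 members, which the choice by MSN spread favors.

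**Figure D5:**
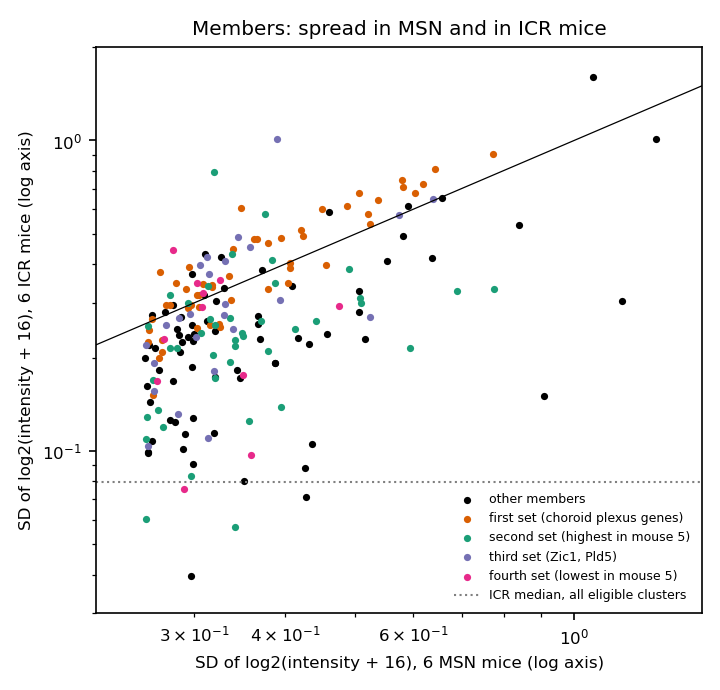
Each point is a member, with its SD of log2(intensity + 16) over 6 MSN mice on the horizontal and over 6 ICR mice on the vertical axis, both logarithmic; the solid line marks equal SDs and the dotted line the ICR median of all ranked clusters, 0.0795. The first set has median SDs of 0.336 in MSN and 0.358 in ICR mice, and 195 of the 200 points lie above the dotted line.

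Whether spread differed between the strains was tested over all 18559 clusters with limma on absolute deviations from the strain mean. At a Benjamini-Hochberg adjusted p under 0.05, 9 clusters (0.0485%) were called. All 9 were narrower in MSN mice and 0 were wider, so 0 of the 200 members were called. In simulated data the test missed most clusters that had been made wider in MSN mice and called about as many unchanged clusters as were called here, so the count of 0 does not show that no member was wider, and the 9 calls may include false ones. At an unadjusted p under 0.05 there were 1534 clusters, with 721 wider and 813 narrower in MSN mice. An F test of the variances called 1 cluster, narrower in MSN mice, and limma with trend and robust options 0. With an MSN mouse left out, limma called 2 to 10 clusters wider in MSN mice (10 without mouse 4) and 7 to 11 narrower, so the absence of wider calls rested on the full group of 6. Of the members, 1810037I17Rik, Ptpra and Glo1 had the smallest limma adjusted p, 0.0775 in each. Ptpra, a receptor tyrosine phosphatase, had 2082 and 1959 in MSN mice 1 and 6 and 2909 to 3059 in the other 4, and 2858 to 3065 in ICR mice, SDs of 0.297 and 0.0396. The clusters with the smallest p on the other side were 2 of Tom1, an endosomal sorting protein, with SDs of 0.0313 and 0.0312 in MSN mice and 0.342 and 0.339 in ICR mice (limma adjusted p 8.08e-07 in both).

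Several gene groups held 0 or 1 member. Members made up 1.13% of all ranked genes, so a count of 0 in lists this short does not mark a group as steady. The median SD of all ranked genes was 0.0819. The dentate granule cell list had 17 ranked genes and 0 members, with a median SD of 0.104, and its marker Prox1 stayed between 1248 and 1435. Astrocytes (17 genes), microglia (17), oligodendrocyte precursors (12) and pericytes and smooth muscle (13) had 0 members as well, and their median SDs were 0.0749, 0.101, 0.0633 and 0.105. Mature oligodendrocytes had 1 of 17, Klk6, a secreted protease, with 403 in mouse 6 and 224 to 294 in the others. Endothelium had 1 of 16, Cldn5, the claudin of the blood-brain barrier, with 1397 in mouse 3 and 846 to 1119 in the others.

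The meningeal list had a larger share, with 5 of 19 ranked genes (26.3%, against 1.13% of all ranked genes). They were Ogn, Dcn and Fmod, small proteoglycans of connective tissue, besides Igf2 and Igfbp2, which lay in the first set with the plexus genes. The 5 did not move as a block, with a median r of 0.38 in MSN and 0.32 in ICR mice. Col1a1 and Col3a1, on the same list, had SDs of 0.0959 and 0.0566. Dcn was lowest in mouse 1 at 1411 and highest in mouse 5 at 2842. Mouse 1 was lowest in 13 of these 19, mouse 5 highest in 8, and the median SD was 0.199, and 0.171 without mouse 5.

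The principal hippocampal fields gave some members whose markers did not move as a block. The CA1 list had 3 members of 10: Lefty1, Dcn and Spink8. Lefty1, a TGF beta antagonist, was highest in mouse 2 at 167 and Spink8, a protease inhibitor, in mouse 1 at 449. Their median r with each other and Dcn was -0.08. The CA3 list had 3 of 14, Prkcd, Cdh24 and Fgf1, with a median r of 0.23. Dcn and Prkcd also stand on the meningeal and the thalamic list.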

How the data were processed

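Hippocampal RNA of 6 MSN and 6 ICR mice was hybridized to Affymetrix Mouse Gene 1.0 ST arrays. The authors summarized the probes with Affymetrix Power Tools 1.12.0, by PLIER with background correction by GC content per the submitters' notes and the study's methods, and deposited linear intensity values for 35556 transcript clusters. Genes were named through the platform annotation, in which 21789 clusters have 1 gene, 1621 several and 12146 none, and 21698 of the first matched RefSeq (GRCm38.p6). Positions of that build served to find neighbors, and coordinates were printed with sequences.

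From the deposited intensities log2(value + 16) was taken with no further normalization, and the SD over the 6 MSN arrays was ranked among 18559 clusters with 1 gene and a mean of 7 or more. Members were grouped by average linkage on 1 - r. Spread was compared between strains with limma 3.58.1 (R 4.3.3) on absolute deviations from the strain mean, with Benjamini-Hochberg adjustment over all 18559 clusters. Other steps used Python 3.11.15, pandas 2.3.3 and scipy 1.17.1. The spread test was tested on simulated data. Arrays have no read depth, and their number limits the precision. Labels do not say whether replicate numbers mark litters or days.

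The members and gene lists were chosen with earlier results of these data known. Named genes were the 20 with the highest SD, up to 4 members of each list, 6 genes of each set of 8 or more clusters, the 3 clusters on either side of the border, the 5 smallest p of the spread test in each direction and genes with a second cluster. Other genes were chosen after their values were seen, as were the lists of endoplasmic reticulum chaperones and motile cilia. Alternatives were pseudocounts of 1 and 64, quantile normalization, scaling to the same median, means of 6 or more, 8 or more or any, 1 cluster per gene, other measures of spread, other tests of spread, a replicate block, and leaving out each array.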

Additional observations from a re-analysis of the deposited data

Results flagged for a closer look

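In 10 of 72 named clusters, most named by rule and a few after their values were seen, 1 MSN mouse lay far from the other 5. The gap between it and its nearest neighbor, as a share of the whole range, exceeded Dixon's critical value for 6 samples. Chance passes about 1 in 20 groups. Most of the 72 were named for a high SD of these same values, which favors a distant mouse, so their share is a description and no test. Over all ranked clusters 1068 of 18559 (5.75%) passed, and 23 of the 200 members (11.5%). The share of the range was 0.955 for Baiap2l1, where mouse 6 was low. Mouse 5 was the high one for Nt5dc3 at 0.916, Egr2 at 0.831, Fos at 0.786, Arc at 0.766, Npas4 at 0.699, Tpbg at 0.669 and Dusp1 at 0.657. Mouse 5 was the low one for Mir491 at 0.758 and Tbc1d5 at 0.659. In 9 of the 10 clusters the distant mouse was thus mouse 5, whose array also had the widest deviations over all clusters, and the part of that array in these values was not tested. These 9 all lay in the second or the fourth set, whose clusters varied together, so they are not separate events.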

How the results depend on the processing

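Leaving out an MSN mouse kept 142 to 177 of the 200 members, and the median absolute deviation in place of the SD kept 115. The immediate early genes numbered 0 to 15 among the 200 when a mouse was left out, 0 without mouse 5, and 2 with the median absolute deviation, which gives a single distant mouse little weight by construction. The endoplasmic reticulum chaperones numbered 3 to 6 (3 without mouse 5), the plexus genes 14 to 18 and the cilia genes 7 to 11, with 6 cilia genes at a mean log2 of 8 or more. Pairs of members at an r of 0.9 or more numbered 1283 to 2194, the most without mouse 1. The clusters called in the spread test were 5 with squared deviations, 1 with the F test, 0 with trend and robust options, and 5 to 19 with an array left out: 10 to 19 without an MSN array (15, 19 and 17 without mice 3, 4 and 5) and 5 to 12 without an ICR array (5 without ICR mouse 4). The cause was not tested. With the replicate number as a block 8 were called, 1 of them wider in MSN mice. Deviations of arrays with the same number had an r of -0.18 to 0.13. A low r does not settle whether the numbers pair the samples, because a shared litter or day could have a small effect. Of 987 SDs of the 72 named clusters under alternatives, 887 stayed within the 200 and 28 moved by over 1.5 times, each with a mouse left out. Of these 19 were without mouse 5, where the SD of Nt5dc3 was 0.0656 and that of Egr2 0.134. The others were Alad (0.202) and Hdhd3 (0.168) without mouse 1, Kcnj13 (0.460), Clic6 (0.385), Gm1976 (0.364) and Cldn5 (0.156) without mouse 3, Fam20b (0.143) without mouse 4, and Baiap2l1 (0.0432) and Klk6 (0.135) without mouse 6. Clusters with a mean log2 of 7 to 8 had a median SD of 0.104, so weak signals limit what can be read from small spreads there.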

Other observations

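Several cell type lists, each with 0 or 1 member, had a small common shift in 1 mouse. Of 17 ranked genes of mature oligodendrocytes, 12 were highest in mouse 6 and 10 lowest in mouse 5, with median log2 differences of 0.11 and -0.10. Of 17 microglial genes, 11 were highest in mouse 1 and 9 lowest in mouse 6, at medians of 0.09 and -0.11. Of 16 endothelial genes, 9 were highest in mouse 3 and 10 lowest in mouse 2, at 0.11 and -0.12. Among 22 glucocorticoid targets, 12 were highest in mouse 1, where their median was 0.13, and the only member was Dusp1. Over all ranked clusters, mouse 1 was highest in 23.9% and mouse 6 in 14.9%, and mouse 5 was lowest in 28.5%.

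Olfactory receptor genes, which brain tissue expresses weakly, and microRNA genes also had shared extremes. Of 329 ranked olfactory receptor genes, 166 were highest in mouse 6 and 118 in mouse 2, and 140 were lowest in mouse 5 and 116 in mouse 1. Of 181 microRNA genes, 72 were highest in mouse 2 and 61 in mouse 6. The median SDs of the olfactory receptor and microRNA families were 0.129 and 0.138, and 4 and 6 of their genes were members (1.22% and 3.31%, against 1.13% of all ranked genes). Ribosomal protein genes (59) had a median SD of 0.0655 and 0 members.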
